A study of Bos taurus with 12 samples.

Results

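The mitochondrial respiratory chain subunits described here are the genes whose RNA encodes the parts of complexes I to V, measured in growth plate chondrocytes of cattle. Members were chosen by symbol alone: symbols beginning with NDUFA, NDUFB, NDUFC, NDUFS or NDUFV and a digit were counted under complex I, SDHA, SDHB, SDHC and SDHD under complex II, and CYC1 and symbols beginning with UQCR under complex III. Symbols beginning with COX4 to COX8 were counted under complex IV and those beginning with ATP5 under complex V. The rule found 80 of the 9155 genes named on the array, measured by 101 of 24016 non-control probe sets, 48 of complex I, 4 of complex II, 12 of complex III, 16 of complex IV and 21 of complex V. The symbols also caught NDUFA4 and NDUFA4L2, now placed with complex IV, COX7A2L, which helps complexes to associate, and ATP5IF1, an inhibitor of the ATP synthase. They are counted where the symbol puts them.

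The cells came from the distal metacarpal growth plate of male dairy cattle younger than 10 months. A digestion of 4 hours with collagenase P freed the cells, which were then separated by density. The tested cells were the least dense fraction, the hypertrophic zone (HZ, 6 arrays), and the cells they were set against were the densest fraction, the reserve zone (RZ, 6 arrays), in 6 pairs numbered 1 to 6. No treatment or genotype differed between the groups. A zone is thus a density fraction and not a dissected layer, and the labels do not say how many animals gave a pair, so the tests speak of the spread among these 6 pairs, which may be partly technical.

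Complexes I, III and IV pass electrons from NADH to oxygen and pump protons out of the mitochondrial matrix, complex II feeds in electrons from succinate without pumping, and complex V uses the returning protons to make ATP. Most subunits are encoded in the nucleus. Some subunits carry the redox centres or the catalytic sites, and the accessory subunits around them serve assembly and stability. Growth plate cartilage has no blood vessels of its own, and its chondrocytes are known to draw much of their ATP from glycolysis. Hypertrophic chondrocytes swell, deposit a matrix that mineralises and border on invading vessels, whereas reserve zone cells divide slowly.

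Of the listed zone markers, 5 of 8 hypertrophic zone genes were higher in HZ, as were 3.26% of all probe sets. Of the reserve zone genes 4 of 5 were lower in HZ, as were 2.96% of all. These lists were chosen with earlier results of these data known, so the counts cannot test the fractions. COL10A1, a listed hypertrophic zone gene, was at 15530 to 28359 in HZ and 15245 to 26743 in RZ, a log2 difference of 0.11. All values below are recovered signals, in arbitrary units in which every array has a median of 96.7. Differences are HZ minus RZ of log2(signal + 16). Their standard errors (SE) are limma's moderated ones, which combine a probe set's spread over the 6 pairs with that of all probe sets. They can thus differ from the plain error over the 6 pairs. A gene is said to have passed when its p from limma, with pairs as blocks and adjusted over all probe sets, was under 0.05. In RNA of whole fractions, fewer cells of a type and less RNA per cell cannot be told apart.

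Few respiratory chain genes passed between the zones. Of the 101 probe sets, 1 passed as higher in HZ (0.990%), that of NDUFV3, where 3.26% of all probe sets passed in that direction. The 2 that passed as lower in HZ were those of COX6B2 and NDUFA4L2 (1.98%), where 2.96% of all probe sets did. The other 98 did not pass. Of all 101, 90 had a 95% interval that lay within 1 log2 unit on either side of 0. This bound is wide, since NDUFV3, which passed, also lay within it (0.30 to 0.96).

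Small positive differences were nevertheless common. The difference was above 0 in 71 of the 101 probe sets (70.3%), against 48.8% of all probe sets, and the median was 0.14, against -0.01 over all. Unadjusted p-values under 0.05 were reached by 20 members in the higher direction (19.8%) and 4 in the lower (3.96%), against 10.4% and 11.8% of all probe sets. Over the 86 members at or above the median brightness, the median was 0.16, against -0.05 over all 12008 such probe sets. When only those were tested and adjusted, 9 members passed as higher (10.5%) and 3 as lower (3.49%), against 8.61% and 11.4% of all. Quantile normalization gave 7 higher (6.93%) and 2 lower (1.98%), against 3.90% and 3.04% of all probe sets. With pairs as a random block 7 (6.93%) and 1 (0.990%) passed, against 3.82% and 3.36% of all. A constant of 64 in place of 16 gave 5 (4.95%) and 3 (2.97%), against 4.23% and 4.66% of all. The 6 pairs shared a sign in 10 members that were higher (9.90%) and 3 that were lower (2.97%), against 6.85% and 7.15% of all probe sets. The plot of all 80 genes shows this as a cloud slightly right of 0 with 2 genes far to the left.

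**Figure D1:**
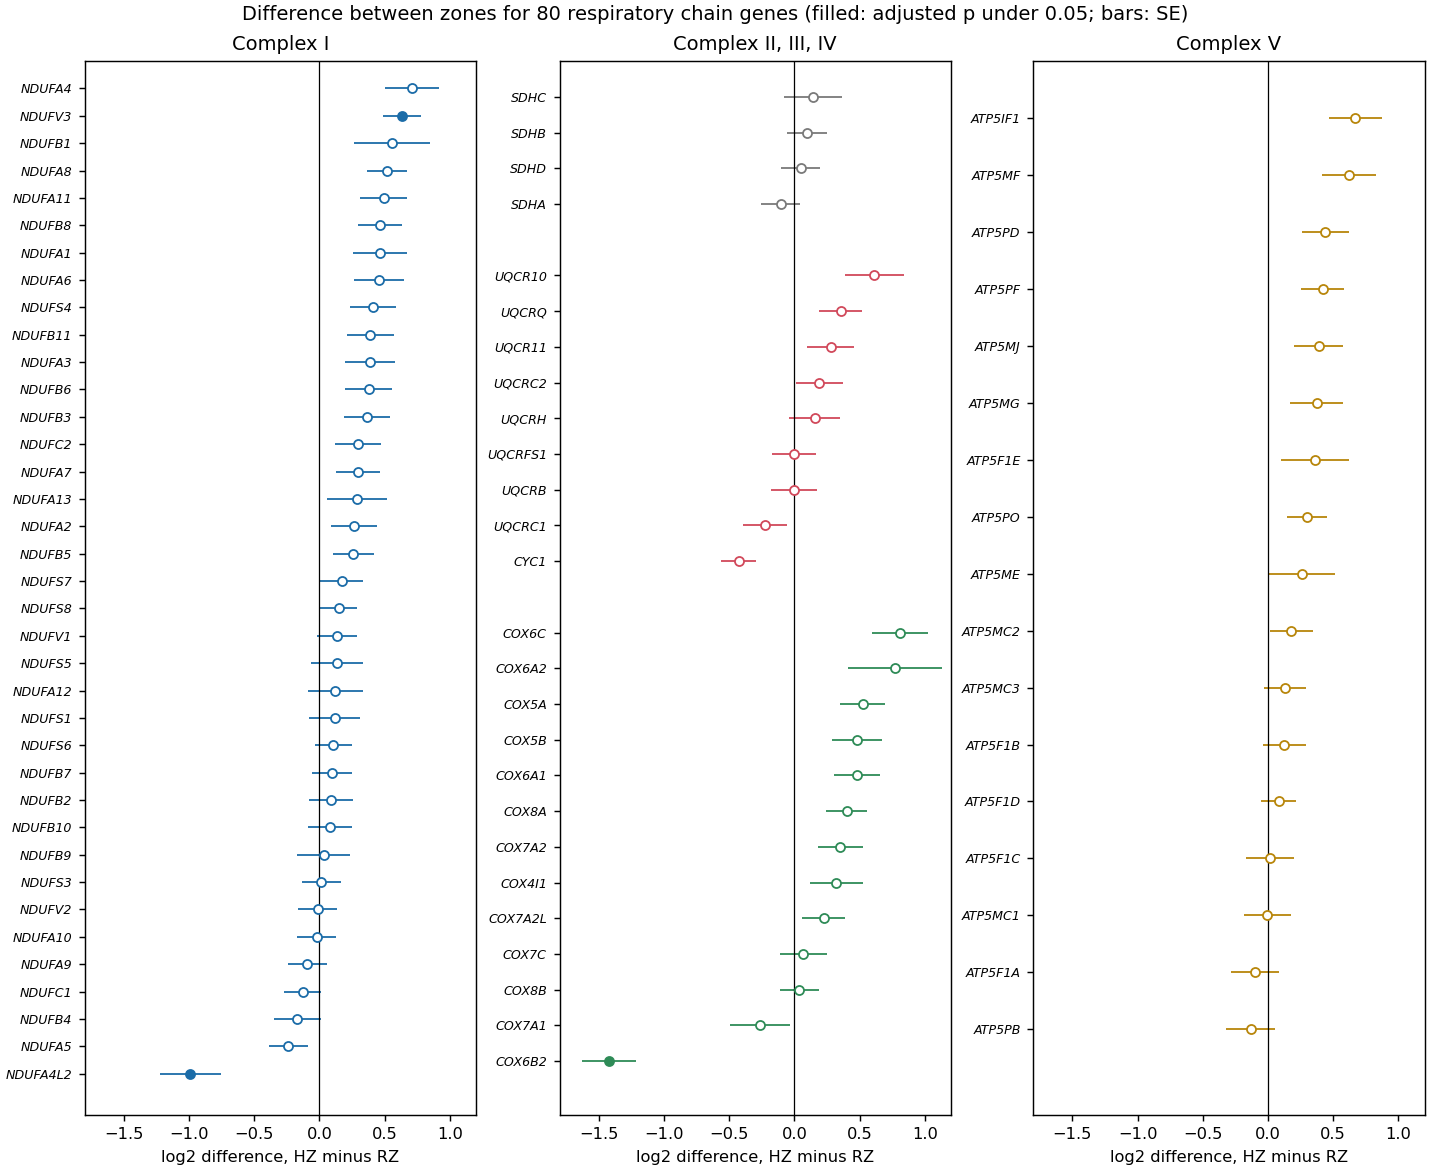
Log2 difference, HZ minus RZ, for each of the 80 genes (its brightest probe set), in panels by complex. Points are differences and bars their moderated standard errors (6 pairs), and filled points passed at an adjusted p under 0.05. In this plot 63 of 80 genes lie above 0, NDUFV3 is the filled point on the right, and COX6B2 and NDUFA4L2 are the filled points on the left.

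The size of the general difference varied between pairs. The median of the 101 differences was 0.13, -0.11, 0.71, 0.28, 0.36 and -0.11 in pairs 1 to 6, against 0.01, -0.08, 0.10, -0.07, 0.00 and -0.03 over all probe sets. The number of members higher in HZ was 60, 37, 82, 66, 79 and 34 of 101 in the same order. Over all probe sets it was 12264, 10196, 13847, 10769, 12069 and 11365 of 24016. The members were therefore mostly higher in HZ in pairs 3, 4 and 5, mostly lower in pairs 2 and 6, and divided in pair 1. Leaving out pair 3 lowered the median to 0.06, and within pairs 1 and 2 alone it was 0.003, against 0.23 within pairs 3 to 6. Pairs 1 and 2 differ from the others in the step size of the deposited values. A test of the difference between these groups of pairs found no member past the adjusted threshold with limma, and 1 at an unadjusted p under 0.05, NDUFA4L2.

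Differences between the ends of 3 control transcripts, a measure of RNA quality, did not order the pairs alike. For the control transcript GAPDH, the log2 ratio of the 3' to the 5' probe set was higher in HZ by 0.11, 0.18, 1.27, 0.87 and 0.31 in pairs 1 to 5 and differed by -0.26 in pair 6. The 3 pairs with the highest member medians thus had the 3 highest GAPDH differences. For actin the differences were 1.44, 0.02, 0.68, 1.22, 0.68 and 0.11, highest in pair 1, where the member median was 0.13. For EF1A they were -0.41, -0.37, 0.84, -0.11, -1.04 and -0.32. These were highest in pair 3 and lowest in pair 5, where the member medians were 0.71 and 0.36. Without pairs 3 and 4 the member median was 0.09. The part of RNA quality in these differences was not tested.

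**Figure D2:**
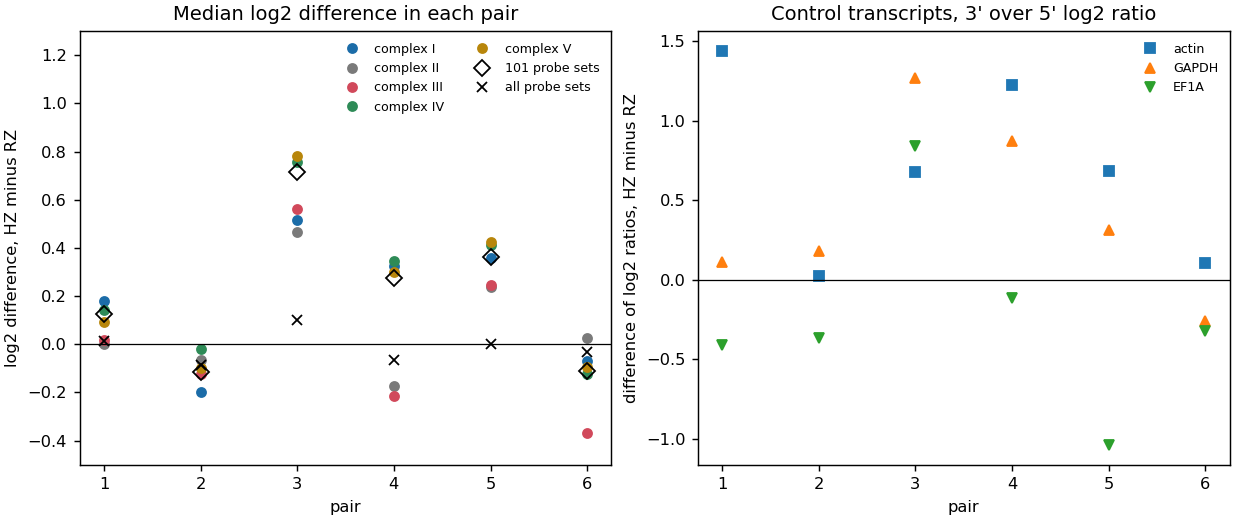
Left, median log2 difference (HZ minus RZ) in each pair for the probe sets of complexes I to V, for all 101 members and for all 24016 probe sets; right, difference (HZ minus RZ) of the 3' over 5' log2 ratio of 3 control transcripts in each pair. Pair 3 has the highest member median, 0.71, and the highest GAPDH difference, 1.27, while the highest actin difference, 1.44, is in pair 1.

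In complex I, the NADH dehydrogenase, 35 of 48 probe sets were above 0 (72.9%), against 48.8% of all, with a median of 0.14. NDUFV3, an accessory subunit of the module that binds NADH, passed in the higher direction and NDUFA4L2 in the lower. NDUFV3 had signals of 982, 699, 781, 609, 702 and 690 in HZ-1 to HZ-6, against 570, 549, 396, 459, 403 and 468 in RZ-1 to RZ-6. Every HZ array was above every RZ array. The difference was 0.63 ± 0.15 (SE, 6 pairs), a fold of 1.55, with a limma adjusted p = 0.0354. The call rested on all 6 pairs, since without any single pair the limma adjusted p lay between 0.0522 and 0.107. Over all 16 alternatives its limma adjusted p ranged from 0.00734 to 0.484, and 5 passed. Signals that do not overlap were seen in 3 members in the higher direction (2.97%) and in no member in the lower, against 1.68% and 1.21% of all probe sets.

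NDUFA4L2 encodes a relative of NDUFA4 that is known in mouse and human cells as a target of hypoxia-inducible factor that lowers respiration. The brighter of its 2 probe sets had signals of 42.5, 144, 319, 288, 867 and 790 in HZ-1 to HZ-6, against 181, 523, 575, 530, 884 and 1338 in RZ-1 to RZ-6. The groups overlapped because pairs differed widely in level, and within each pair HZ was lower. The differences were -1.75, -1.75, -0.82, -0.84, -0.03 and -0.75 in pairs 1 to 6, so pair 5 hardly differed. The mean difference was -0.99 ± 0.23 (SE, 6 pairs), with RZ 1.99-fold above HZ and a limma adjusted p = 0.0365. Leaving out any pair but pair 5 ended the call (limma adjusted p up to 0.109), as did a fit without pairs as blocks (limma adjusted p = 0.456), and 4 of its 16 alternatives passed. The dimmer NDUFA4L2 probe set had a difference of -0.23 ± 0.15 and did not pass (limma adjusted p = 0.423).

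NDUFA4, the constitutive relative, had the opposite sign and did not pass. Its brighter probe set had a lowest, median and highest signal of 2300, 2871 and 3796 in HZ, against 1315, 1786 and 2276 in RZ, with no overlap. The difference was 0.71 ± 0.21 (limma adjusted p = 0.0741), positive in 6 of 6 pairs, though only 0.02 in pair 2. Its other probe set was dim, at a median of 10.9 in HZ against 18.6 in RZ, and had a difference of -0.20 ± 0.26 (limma adjusted p = 0.722). Thus NDUFA4 and NDUFA4L2 had differences of opposite sign in their brighter probe sets in all 6 pairs. No test was made of one gene against the other.

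NDUFA8, an accessory subunit on the intermembrane side, came next in complex I. It had a lowest, median and highest signal of 768, 1062 and 1282 in HZ, against 631, 701 and 950 in RZ, and a difference of 0.52 ± 0.15 (limma adjusted p = 0.0831). HZ was higher in 6 of 6 pairs although the groups overlapped. NDUFB8 and the brighter probe set of NDUFA11, both accessory, were likewise higher in 6 of 6 pairs with differences of 0.47 and 0.49 that did not pass. The dimmer NDUFA11 probe set also differed by 0.49, but was higher in 5 of 6 pairs, with pair 5 at -0.13. NDUFA1, an accessory subunit, had a median of 6745 in HZ against 4840 in RZ and a difference of 0.46 ± 0.21 (limma adjusted p = 0.231), with pair 6 at -0.40. NDUFS1, an iron-sulphur subunit, gave a different answer with each of its 3 probe sets. The brightest had a difference of 0.12 ± 0.19 and the next of -0.10 ± 0.16. The dimmest, with a median of 29.1 in HZ against 4.39 in RZ, had a difference of 0.90 ± 0.25 (limma adjusted p = 0.0679).

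**Figure D3:**
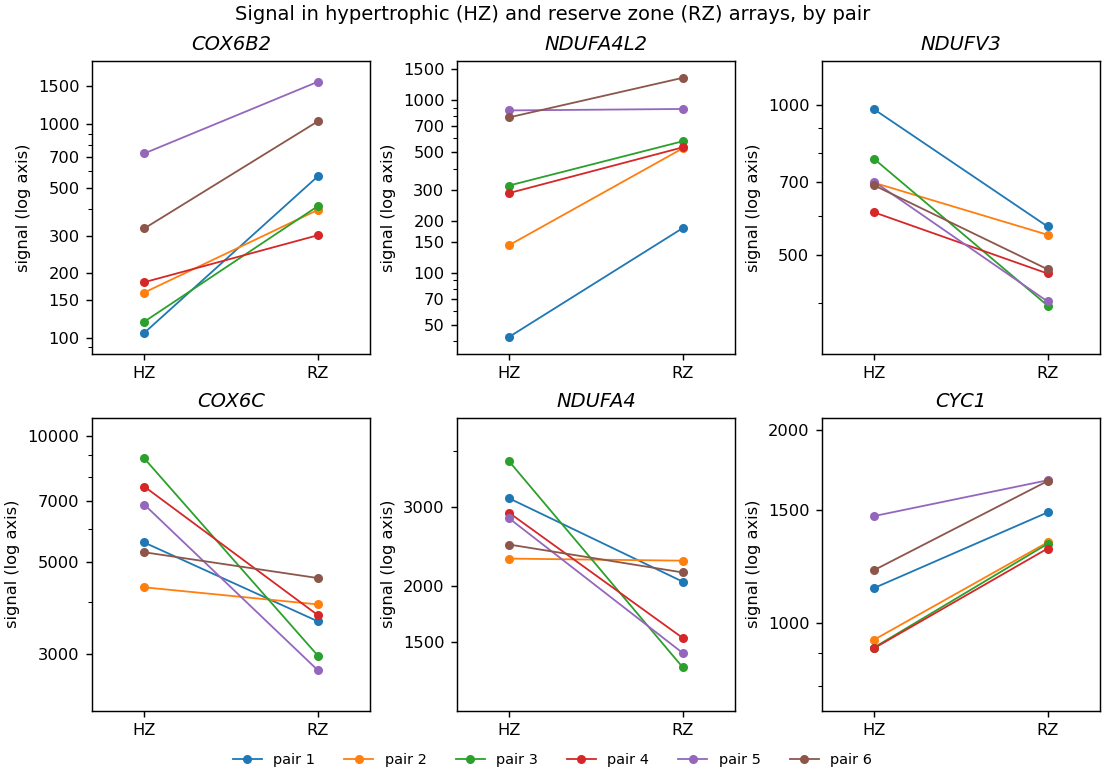
Signal (log axis) of COX6B2, NDUFA4L2, NDUFV3, COX6C, NDUFA4 and CYC1 in the 6 HZ arrays (left of each panel) and the 6 RZ arrays (right), with lines joining the arrays of a pair. The HZ end of every line lies below the RZ end for COX6B2, NDUFA4L2 and CYC1, and above it for NDUFV3, COX6C and NDUFA4.

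Complex II, succinate dehydrogenase, showed no difference past the threshold in any of its 4 genes, and none reached an unadjusted p under 0.05 with limma. SDHA, the flavoprotein that oxidises succinate, had a median signal of 830 in HZ against 848 in RZ and a difference of -0.10 ± 0.15, with a 95% interval of -0.43 to 0.23. SDHB, the iron-sulphur subunit, differed by 0.10 ± 0.16 (interval -0.25 to 0.45). The membrane anchors SDHC and SDHD differed by 0.14 ± 0.22 and 0.05 ± 0.15, with intervals of -0.36 to 0.64 and -0.28 to 0.38. SDHC varied most between pairs, with -0.97 in pair 4 and 0.72 in pair 3. The limma adjusted p-values of the 4 genes were between 0.747 and 0.897.

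Complex III, which hands electrons from ubiquinol to cytochrome c, had 5 of 12 probe sets above 0 (41.7%), against 48.8% of all, and a median of -0.00. None passed with limma. Unadjusted p-values under 0.05 were reached by 1 in the higher and 1 in the lower direction, against 10.4% and 11.8% of all probe sets. CYC1, the haem-bearing cytochrome c1, was lower in HZ in 6 of 6 pairs. Its lowest, median and highest signals were 915, 1039 and 1468 in HZ, against 1307, 1412 and 1669 in RZ, and the groups overlapped. The difference was -0.43 ± 0.13 (limma adjusted p = 0.0938), between -0.18 in pair 5 and -0.53 in pair 3, and was -0.44 within pairs 1 and 2 and -0.42 within pairs 3 to 6. CYC1 was thus lower in HZ also in pair 3, where most members were higher. UQCR10, a small accessory subunit, had a median of 1771 in HZ against 1222 in RZ and a difference of 0.61 ± 0.23 (limma adjusted p = 0.147), positive in 5 of 6 pairs. UQCRQ, which binds ubiquinone, differed by 0.36 ± 0.17 and UQCRH, the hinge protein, by 0.16 ± 0.20, and neither passed.

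Complex IV, cytochrome c oxidase, had 12 of 16 probe sets above 0 (75%), against 48.8% of all, and a median of 0.27. It held the clearest single change among the members. COX6B2, known in human and rodents as the testis form of a subunit on the cytochrome c side, was lower in HZ in every pair. Its only probe set had signals of 105, 163, 119, 182, 727 and 324 in HZ-1 to HZ-6, against 568, 396, 412, 301, 1572 and 1026 in RZ-1 to RZ-6. Arrays of pairs 5 and 6 were the brightest of their group in both zones, so the groups overlapped. Differences in pairs 1 to 6 were -2.27, -1.21, -1.67, -0.68, -1.10 and -1.62. The mean was -1.42 ± 0.21 (SE, 6 pairs; 95% interval -1.88 to -0.96), with RZ 2.68-fold above HZ and a limma adjusted p = 0.00612. It passed without any single pair (limma adjusted p 0.0111 to 0.0234), but not in a fit without pairs as blocks (limma adjusted p = 0.122), without pairs 3 and 4 (0.0531) or within pairs 1 and 2 alone (0.301), the highest of its 16 alternatives, of which 13 passed. No probe set of COX6B1, the form of other tissues, was among the members.

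COX6C, an accessory subunit with a membrane helix, came closest to passing in the higher direction. The brighter of its probe sets had a lowest, median and highest signal of 4340, 6210 and 8854 in HZ, against 2745, 3660 and 4568 in RZ. HZ was higher in 6 of 6 pairs and the groups overlapped only narrowly. The difference was 0.81 ± 0.21 (limma adjusted p = 0.0553), with 1.57 in pair 3 and 0.14 in pair 2. The dimmer probe set, at a median of 52.3 in HZ against 51.5 in RZ, differed by 0.12 ± 0.22 (limma adjusted p = 0.806). COX5A and COX5B, which lie beside the catalytic core, differed by 0.52 ± 0.17 and 0.48 ± 0.19 without passing (limma adjusted p = 0.107 and 0.171). COX4I1, the main form of subunit IV, had a median of 5400 in HZ against 4369 in RZ and a difference of 0.32 ± 0.20 (limma adjusted p = 0.398), with -0.13 within pairs 1 and 2 and 0.54 within pairs 3 to 6.

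Several complex IV subunits have a heart and muscle form besides the form of most tissues. COX6A1, the general form, differed by 0.48 ± 0.18 in its bright probe set and by -0.23 ± 0.20 in a dim one. COX6A2, the muscle form, was dim, with a median of 58.1 in HZ against 35.2 in RZ. Its difference was 0.77 ± 0.36 (limma adjusted p = 0.244), largest in pair 1 at 2.93, where HZ was at 246 and RZ at 18.4. In pairs 2 to 6 the differences were -0.34, 0.08, 0.96, 0.58 and 0.42. Without any single pair the mean difference lay between 0.34 and 0.99. Among muscle genes, DES, the muscle filament desmin, differed by 2.69 in pair 1 (399 in HZ and 48.3 in RZ), ACTA1, skeletal muscle actin, by 0.62 and CKM, muscle creatine kinase, by -0.00. The other 5 muscle markers differed there by 0.66 (MB), 0.54 (MYH1), -0.37 (MYH7), -0.44 (MYL1) and -1.58 (TNNT3), so they had no common direction. DES differed by 2.69 in pair 6 as well, where COX6A2 differed by 0.42. Of 8 muscle markers, 1 passed as higher in HZ, DES (1.81 ± 0.26, limma adjusted p = 0.00612), as did 3.26% of all probe sets. The summed signal of the 8 was 5653 to 11437 in HZ, against 5081 to 10608 in RZ. The part of muscle RNA in the COX6A2 signal was not tested.

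The remaining isoform groups are given side by side, and the difference between forms was not tested. COX7A1, the muscle form, had a median of 874 in HZ against 952 in RZ and a difference of -0.26 ± 0.23, with 0.60 in pair 3 and -1.29 in pair 6. COX7A2, the general form, differed by 0.35 ± 0.17 and COX7A2L by 0.23 ± 0.17. COX8A, the general form, differed by 0.40 ± 0.16 and was higher in HZ in 6 of 6 pairs, while COX8B, the muscle form, differed by 0.04 ± 0.15 in its brighter probe set and -0.09 ± 0.14 in a dim one. None of these passed (limma adjusted p 0.165 to 0.921). COX7C, a small subunit, differed by 0.07 ± 0.18, with pair 3 at 0.76 and pair 6 at -0.49.

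Complex V, the ATP synthase, had 16 of 21 probe sets above 0 (76.2%), against 48.8% of all, and a median of 0.26. None passed with limma. Unadjusted p-values under 0.05 were reached by 5 in the higher and 1 in the lower direction, against 10.4% and 11.8% of all probe sets. ATP5MG, subunit g of the membrane part, had a lowest, median and highest signal of 1679, 2488 and 3543 in HZ, against 1257, 1730 and 2084 in RZ, in the dimmer of its 2 probe sets. HZ was higher in 6 of 6 pairs, and the difference was 0.56 ± 0.16 (limma adjusted p = 0.0727). The brighter gave 0.37 ± 0.20 (limma adjusted p = 0.320). ATP5IF1, which blocks the synthase from running backwards and splitting ATP, had 1409, 1754 and 2443 in HZ, against 929, 1025 and 1457 in RZ. Its difference was 0.67 ± 0.20 (limma adjusted p = 0.0828), positive in 6 of 6 pairs but only 0.07 in pair 2 and 0.03 in pair 6. ATP5PF, a stalk subunit also called coupling factor 6, had 2717, 3055 and 4332 in HZ, against 2096, 2405 and 2699 in RZ. Its groups did not overlap, yet the difference of 0.42 ± 0.17 did not pass (limma adjusted p = 0.171).

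The 3 genes that encode identical mature c subunits of the proton-driven ring differed little. ATP5MC1 had a difference of -0.01 ± 0.18 (95% interval -0.41 to 0.39), ATP5MC2 of 0.18 ± 0.17 (-0.19 to 0.55) and ATP5MC3 of 0.13 ± 0.16 (-0.23 to 0.49). ATP5F1A, the alpha subunit of the catalytic head, had a median of 6120 in HZ against 6753 in RZ and a difference of -0.10 ± 0.18. It was lower in HZ in 5 of 6 pairs and 0.71 higher in pair 3. ATP5F1D, the delta subunit of the ATP synthase, had a difference of 0.08 ± 0.13 in its brighter probe set. A dim ATP5F1D probe set was at a median of 14.0 in HZ against 64.7 in RZ and differed by -0.99 ± 0.33 (limma adjusted p = 0.108), with 4 of 6 pairs lower.

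When genes were split by their place in the complex, the groups named core or F1 head here had the smaller medians. This grouping was made after the values had been seen and carries no test. Each gene is taken through its brightest probe set. The 6 measured core genes of complex I, which bind NADH or the iron-sulphur clusters or lie among them, had a median difference of 0.13, between -0.01 and 0.17, and the 31 other complex I genes had a median of 0.29. In complex III, the group held CYC1 (-0.43) and UQCRFS1 (-0.00), which carry redox centres, and UQCRC1 (-0.22) and UQCRC2 (0.19), which are core proteins by name and carry none. These 4 had a median of -0.11 and the other 5 genes of 0.28. The dimmer UQCRC2 probe set, not used here, had the opposite sign (-0.29 ± 0.15) and was lower in HZ in 5 of 6 pairs. In complex V, the 5 genes of the F1 head had a median of 0.08 and the other 12 of 0.34. The medians were 0.35 over the 13 genes of complex IV and 0.07 over the 4 of complex II.

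**Figure D4:**
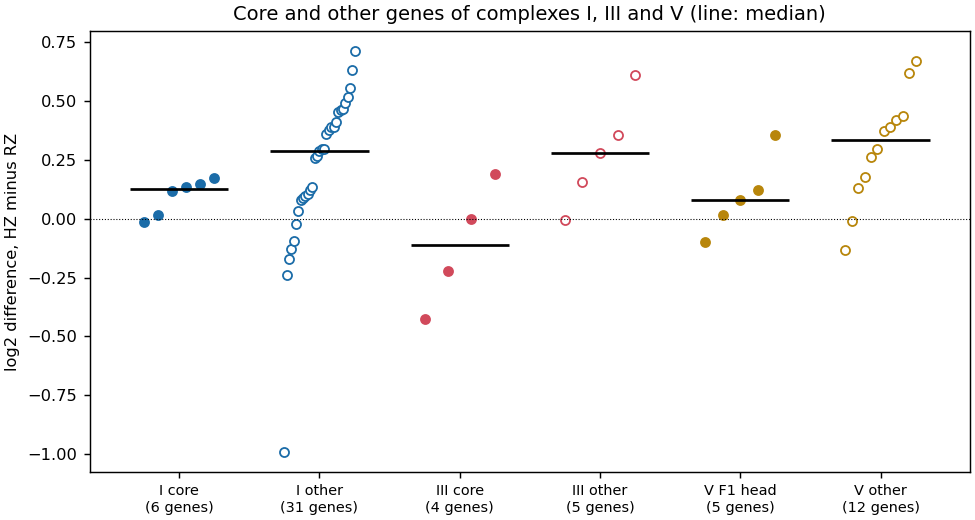
Log2 difference, HZ minus RZ, of the genes of complexes I, III and V through their brightest probe set, with core genes (F1 head genes in complex V) filled and other genes open; black lines are medians. The 6 core genes of complex I lie between -0.01 and 0.17, and the other groups spread more widely, with NDUFA4L2 at -0.99.

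Genes that build and serve the chain were described from fixed lists. Of 11 measured complex I assembly genes, none passed with limma, with 0 higher and 1 lower at an unadjusted p under 0.05, and the median was 0.02. Of 19 measured assembly genes of complexes II to IV with cytochrome c, 1 passed as lower in HZ and the median was 0.01. That gene was COX15, an enzyme of the path to the haem a of complex IV, measured by 2 probe sets. The brighter had a median of 277 in HZ against 497 in RZ and a difference of -0.84 ± 0.21 (limma adjusted p = 0.0459), lower in 5 of 6 pairs. In the same list SDHAF1, a complex II assembly factor, differed by 0.55 ± 0.15 and COX20, a COX2 chaperone, by 0.67 ± 0.20, and neither passed (limma adjusted p = 0.0651 and 0.0811).

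None of 11 genes for ATP synthase assembly and nucleotide exchange passed with limma (1 higher and 0 lower at an unadjusted p under 0.05; median -0.06), with SLC25A5, an adenine nucleotide carrier, at 0.79 ± 0.23 (limma adjusted p = 0.0704). None of 24 protein import genes passed with limma. Unadjusted, 6 were higher and 2 lower, against 10.4% and 11.8% of all probe sets, and the median was -0.05. TIMM8A, an import chaperone of the intermembrane space, had the smallest limma adjusted p among them, 0.0554, with a difference of 0.63 ± 0.17. None of 15 regulators of mitochondrial biogenesis passed with limma (0 higher and 1 lower unadjusted; median -0.04), and TFB1M, which methylates mitochondrial ribosomal RNA, was at -0.57 ± 0.16 (limma adjusted p = 0.0705). None of 6 genes for other entries of electrons passed with limma (0 higher and 1 lower unadjusted; median -0.09).

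Of 8 measured genes known to be switched in hypoxia or to uncouple respiration, 1 passed as higher and 2 as lower in HZ. Over all probe sets 3.26% and 2.96% did, and the median of the 8 was 0.16. BNIP3L, a receptor for the removal of mitochondria, had a lowest, median and highest signal of 1961, 2250 and 3136 in HZ, against 1129, 1512 and 1669 in RZ. It rose by 0.69 ± 0.15 (limma adjusted p = 0.0313) with no overlap. PDK4, a kinase that shuts off pyruvate dehydrogenase, had 104, 164 and 245 in HZ, against 279, 343 and 814 in RZ, in the brightest of its 3 probe sets. It differed by -1.10 ± 0.19 (limma adjusted p = 0.0121), also with no overlap. The other gene that fell is NDUFA4L2, described above. The relative BNIP3 differed by 0.38 ± 0.16 and did not pass (limma adjusted p = 0.195), so the list held changes in both directions.

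Chondrocyte genes were bright in both fractions, with COL2A1, the main collagen of cartilage, at 16838 to 34227 in HZ and 15306 to 38598 in RZ, and 1 of 9, MATN1, was lower in HZ. Markers of other cell types moved between the fractions as well, where 3.26% of all probe sets passed as higher in HZ and 2.96% as lower. Of 6 macrophage markers 4 were higher in HZ (C1QA, C1QB, C1QC and CSF1R), with summed signals of 1282 to 2539 in HZ, against 954 to 2081 in RZ. In the same list CD14 had the opposite sign, at -0.81 ± 0.26 and lower in HZ in 5 of 6 pairs, and did not pass (limma adjusted p = 0.103), and CD68 differed by 0.14. Of 3 osteoclast markers 2 were higher in HZ (ACP5 and CTSK), with sums of 7104 to 9958 in HZ, against 2272 to 5645 in RZ. Markers lower in HZ included 1 of 6 granulocyte genes (CATHL1; sums 397 to 1978 in HZ, against 522 to 10021 in RZ). The other granulocyte genes did not pass: CATHL3 and S100A9 were lower in HZ in 5 of 6 pairs, CATHL2 and S100A8 in 3, and LTF in 2. Also lower in HZ were 2 of 5 lymphocyte genes (NKG7 and CD2; sums 151 to 282 in HZ, against 228 to 553 in RZ) and 1 of 4 endothelial genes (PECAM1; 151 to 422 in HZ, against 388 to 623 in RZ). VWF, a defining endothelial gene, was at 2.59 to 11.9 in HZ and 3.38 to 8.35 in RZ, and CD79A, a B cell gene, at 3.70 to 6.29 in HZ and 2.24 to 9.93 in RZ. None of 5 erythroid genes passed with limma (0 higher and 0 lower unadjusted; sums 47.9 to 148 in HZ, against 103 to 217 in RZ), nor did either of 2 adipocyte genes (1 higher and 0 lower unadjusted). BGLAP, the 1 measured osteoblast marker, was at 2.43 to 158 in HZ and 5.47 to 1508 in RZ and did not pass (limma adjusted p = 0.242). None of 6 fibroblast markers passed with limma (0 higher and 2 lower unadjusted; sums 13164 to 18064 in HZ, against 14317 to 30852 in RZ). Their part in the results of the respiratory chain genes was not tested.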

How the data were processed

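The deposited value of each probe set on each array is a linear ratio, scaled and centred by the authors, per the file headers and the values; how they did so is not given in the sources used here. For 21901 of 24128 probe sets (90.8%) the ratio was that of the array's signal to the probe set's median over the 12 arrays, and for the other 2227, all dim, it was that to a fixed value. On each array the ratios were integer multiples of a smallest increment, and this gave a signal for every probe set (largest distance 0.0742 of an increment). The unit is an assumption (an increment of 0.1) not found in any source, and it sets the weight of the added constant of 16. The planned design foresaw this.

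Tests used limma 3.58.1 in R 4.3.3 (lmFit, eBayes) on log2(signal + 16), with pair as a fixed block (5 residual degrees of freedom) and Benjamini-Hochberg adjustment over 24016 probe sets, leaving out 112 controls. The recovery and the fit were tested on simulated data. The series description states sample pairs and the titles number them; same-numbered arrays deviated together (correlations 0.124 to 0.447, above the limit of 0.1). Depth has no meaning for arrays, and the number of pairs limits the precision: member standard errors had a median of 0.18. Symbols came from the platform's table, in which 13292 probe sets had 1 symbol; all 101 members matched the RefSeq gene table by Entrez identifier and 0 symbols changed. Brightness served to choose a gene's probe set, to filter and to sum marker signals per array; no result rests on the level of 1 probe set against another's. Text names members that passed, the 3 smallest adjusted p-values and the brightest member of each complex, isoform groups, and up to 3 genes of each related list; others named were chosen after their values were seen. Alternatives were other constants, the deposited ratio, quantile normalization, a brightness filter, other uses of the pair, and subsets of pairs. Members and lists were chosen with earlier results of these data known. Sequences and genome positions were not analysed here.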

Additional observations from a re-analysis of the deposited data

Results flagged for a closer look

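In 4 of 202 groups of 6 arrays (each of the 101 probe sets in each zone), a single array stood apart from the others by Dixon's ratio of the gap to the group's range. Chance flags about 1 in 20 such groups. For NDUFA11, HZ-5 had a signal of 573 and the next HZ array 429 (ratio 0.673). For NDUFA3, an accessory complex I subunit, RZ-6 had 941 and the next RZ array 633 (ratio 0.65). For the brighter ATP5F1D probe set, RZ-4 had 365 and the next lowest RZ array 564 (ratio 0.777). For ATP5F1E, the epsilon subunit of the ATP synthase, RZ-3 had 1203 and the next lowest RZ array 1985 (ratio 0.67). The 4 arrays belong to 4 different pairs, and none of these genes passed between the zones with limma.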

How the results depend on the processing

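The number of members that passed moved with the processing, and most near misses sat on either side of the threshold. As reported, 3 passed (1 higher, 2 lower). The total, higher and lower counts were 1, 0 and 1 with a constant of 1 or with the log2 deposited ratio, and 8, 5 and 3 with a constant of 64. They were 9, 7 and 2 with quantile normalization, and 12, 9 and 3 over probe sets at or above the median brightness. Of the paired design, no replicate block gave 2, 2 and 0, and a random block 8, 7 and 1. Without each replicate pair in turn the total lay between 1 and 2, higher between 0 and 1, and lower between 1 and 2. COX6B2 was lower in each of these fits. The 1 higher was the dimmest NDUFS1 probe set, without pair 3, and NDUFV3 passed in 0 of them. Counts were 1, 0 and 1 within pairs 3 to 6, without pairs 3 and 4, and for pairs 3 to 6 in a fit with both groups of pairs. The 1 lower was COX6B2 within pairs 3 to 6, but the dim ATP5F1D probe set without pairs 3 and 4. Counts were 0, 0 and 0 for pairs 1 and 2 in both ways. Through the mean of each gene's probe sets the counts were 2, 1 and 1.

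No named member that passed changed sign under any alternative run. Among named members that did not pass, signs turned within pairs 1 and 2 for SDHB (-0.056), SDHD (-0.084), UQCRH (-0.17), COX4I1 (-0.13), the dim COX6A1 probe set (0.23), COX7C (-0.17), COX8B (-0.13), ATP5MC2 (-0.17) and ATP5MC3 (-0.059). Without pairs 3 and 4 they turned for SDHD (-0.0048), UQCRH (-0.012), COX6A1 (0.044), COX7C (-0.12), COX8B (-0.034) and ATP5MC3 (-0.0053). ATP5MC1 turned to 0.054 with quantile normalization and 0.13 within pairs 3 to 6. Leaving out 1 replicate pair at a time gave ranges across 0 for SDHD (-0.042 to 0.096), COX7C (-0.070 to 0.18), COX8B (-0.040 to 0.091), ATP5F1A (-0.26 to 0.011) and ATP5MC1 (-0.16 to 0.076). The cause was not tested.

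The complex II median turned to -0.01 without pair 3 and to -0.04 within pairs 1 and 2, and that of complex I to -0.01 within pairs 1 and 2. Complex III ranged from -0.10 to 0.13. Medians of complexes IV and V stayed above 0 in the alternatives run, at 0.14 to 0.37 and 0.003 to 0.40. No alternative was pair 2 or pair 6 alone. There the medians were below 0, at -0.02 and -0.10 in pair 2 and -0.12 and -0.09 in pair 6. The added constant of 16 shrinks differences of dim probe sets: with a constant of 1 the dimmest probe sets of NDUFS1, NDUFA4 and ATP5F1D differed by 1.90, -0.54 and -1.61, and COX6A2 by 0.99.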
